A study of Mus musculus with 26 samples.

Results

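The genes described here are the enzymes that make cholesterol and fatty acids, with a few of their regulators, measured in mouse fibroblasts and macrophages that were grown apart or together, with or without the medium of breast cancer cells. The set was listed by the genes' place in the pathway, with earlier results of these data known: 30 genes in all, of which 7 act in the mevalonate steps, 11 between squalene and cholesterol, 4 in regulation and sterol transfer, and 8 in fatty acid synthesis and desaturation. The fibroblast table lists 29 of the 30 among 12948 genes, and the macrophage table lists the same number among 11822 genes. Squalene synthase, Fdft1, was not analysed here. All 29 listed genes were tested in fibroblasts. In macrophages 27 were tested, because Idi1 and Fasn fell under the filter on low counts.

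The study sequenced the 3′ ends of messenger RNA in 12 fibroblast and 14 macrophage libraries from BALB/c mice aged 8 weeks. Fibroblasts came from mammary fat pads, 2 females for each replicate, depleted of cells carrying EpCAM or CD45. Macrophages were differentiated from bone marrow for 7 days with 20% medium from L929 cells. Cells were grown on collagen I in plain DMEM or in 4T1 CM, the conditioned medium of 4T1 mouse mammary carcinoma cells, and co-cultures lasted 7 days before fibroblasts and macrophages were separated by sorting on F4/80 and CD11b. Fibroblasts grown alone gave 3 libraries from DMEM and 2 from 4T1 CM, and fibroblasts from co-culture gave 3 and 4. Macrophages gave 3 libraries at day 0, 4 after growth alone in 4T1 CM, and, from co-culture, 3 in DMEM and 4 in 4T1 CM. The labels name no transgene, deletion or drug in any group. The 3 day 0 libraries carry a different name in the table, where their columns are headed as bone marrow cells alone in DMEM. They were matched through the code in their titles, and if the column heads are right, the comparisons with day 0 given here are comparisons with macrophages alone in DMEM. The labels give no harvest day for the mono-cultures. Time in culture therefore cannot be told apart from culture type where co-culture and mono-culture are compared. For macrophages alone in 4T1 CM against day 0, it cannot be told apart from the medium. For co-culture in DMEM against day 0, it cannot be told apart from culture type. Whether fibroblasts alone in 4T1 CM and in DMEM were harvested on the same day is not known, so time may also differ between those media. Nothing says that the fibroblast or macrophage replicates are independent beyond their separate labels, so p-values measure the spread between these libraries.

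Cholesterol is built from acetyl-CoA through mevalonate, farnesyl diphosphate, squalene and lanosterol, and fatty acids are built from the same acetyl-CoA by carboxylation, elongation and desaturation. Most of these genes are driven by the SREBP transcription factors, which Srebf1 and Srebf2 encode; when membrane sterol is low the SREBPs leave the endoplasmic reticulum, are cut and enter the nucleus, and Insig1 holds them back when sterol is plentiful. The nuclear receptors LXR respond to oxysterols and raise Srebf1, Scd1 and the sterol efflux genes. In macrophages these routes are known for balancing cholesterol taken up from other cells.

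The promoters of several members carry CCAAT or GC boxes, motifs of partners of the SREBPs, and Hmgcs1 alone held the sterol element searched for. The 5 shown are that of Hmgcs1 and those of genes on which the results turn. RefSeq promoters on GRCm38.p6 were found for 23 of the 30 genes. The stretches are the 150 bases before the transcription start, 5′ to 3′ on the gene's own strand, with CCAAT (or its complement ATTGG) and TCACNCCAC in capitals. The stretch of Acly holds neither, and GC boxes are not marked.
Ebp (chrX:8193513-8193662, minus strand): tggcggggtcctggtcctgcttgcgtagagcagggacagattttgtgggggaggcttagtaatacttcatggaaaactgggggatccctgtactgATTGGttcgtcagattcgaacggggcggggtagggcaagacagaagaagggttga
Nsdhl (chrX:72918371-72918520, plus strand): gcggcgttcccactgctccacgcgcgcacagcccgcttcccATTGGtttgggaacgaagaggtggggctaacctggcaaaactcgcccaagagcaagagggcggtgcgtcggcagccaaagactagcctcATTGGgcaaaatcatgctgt
Hmgcs1 (chr13:119690201-119690350, plus strand): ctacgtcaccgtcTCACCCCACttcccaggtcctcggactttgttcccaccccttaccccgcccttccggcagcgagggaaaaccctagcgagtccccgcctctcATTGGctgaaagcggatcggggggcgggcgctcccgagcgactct
Pmvk (chr3:89454391-89454540, plus strand): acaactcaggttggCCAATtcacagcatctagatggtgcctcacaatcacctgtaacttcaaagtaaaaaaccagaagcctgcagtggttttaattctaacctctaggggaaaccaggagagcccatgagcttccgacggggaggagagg
Acly (chr11:100528001-100528150, minus strand): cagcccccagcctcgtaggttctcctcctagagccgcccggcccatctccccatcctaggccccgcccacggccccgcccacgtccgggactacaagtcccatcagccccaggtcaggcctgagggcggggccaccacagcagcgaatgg

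Over the 250 bases before the start, searched on both strands, CCAAT, the box bound by NF-Y, lay in at least 1 promoter of 18 of the 23 genes (78.3%), against 37.5% of all 27025 genes scored the same way. Per promoter, since a gene can have several, it lay in 19 of 28 (67.9%) against 33.8% of all 32851. The GC box GGGCGG, which Sp1 binds, lay in 19 of the 23 genes (82.6%) against 35.4% of all genes, and in 21 of the 28 promoters (75.0%) against 32.7%. The sterol response element core TCACNCCAC lay in 1 of the 23 genes (4.35%), Hmgcs1, against 1.22% of all genes. A longer form of the sterol element and the LXR direct repeat lay in 0 of the 23, against 0.0814% and 0.0148% of all genes. These are matches of letters and not measured sites; the motifs were counted independently of one another, with overlaps allowed.

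Library totals ran from 1945980 to 7632366 reads in fibroblasts and from 1434695 to 4140985 in macrophages. Levels are given as the authors' normalized read counts, reads divided by a size factor for each library. Each sorted population carried some RNA of the other cell type. The share of the partner was estimated as the median, over 15 fibroblast or 20 macrophage marker genes, of the count relative to the library total (CPM) in the library in percent of their mean in the partner sorted from co-culture in the same medium, or in DMEM for day 0. In macrophages it was 3.48, 3.76, 19.5 and 6.55% in co-culture with 4T1 CM, 2.38, 1.95 and 7.00% in co-culture with DMEM, and at most 0.192% in the other libraries. In fibroblasts it was 0.751, 0.941 and 1.85% in co-culture with DMEM and at most 0.467% elsewhere. All 15 fibroblast markers were found in fibroblasts, and all 20 macrophage markers in macrophages. The part of this RNA in the results was not tested.

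**Figure D1:**
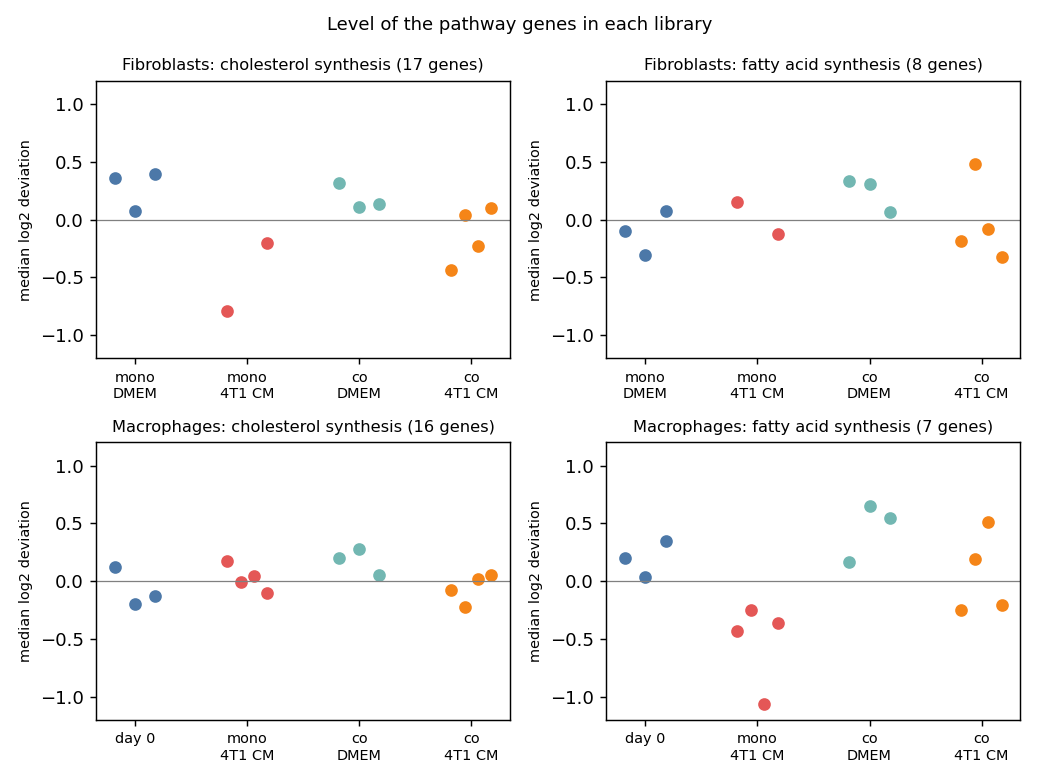
Median log2 deviation of the cholesterol synthesis genes (17 in fibroblasts, 16 in macrophages) and of the fatty acid genes (8 and 7) from their mean over all libraries of the same cell type, 1 point per library. The 2 fibroblast mono-cultures in 4T1 CM sit at -0.79 and -0.21 for the cholesterol genes, below all 3 DMEM mono-cultures.

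In fibroblasts grown alone, 3 genes of cholesterol synthesis, Ebp, Nsdhl and Fdps, were lower in 4T1 CM than in DMEM, by log2 changes of -1.28, -1.22 and -0.98. Of 17 tested between acetoacetyl-CoA and cholesterol, 16 had a log2 change below 0 (50.7% of all genes did), with a median of -0.60 against -0.01 over all genes, and these 3 passed the limma test at an adjusted p under 0.05. Over all 29 genes 3 fell and none rose, or 10.3%, where 13.3% of all genes tested passed, 6.36% higher and 6.93% lower. The share of members called was therefore not above that of all genes. In 12 of the 29 the groups did not overlap and 4T1 CM was lower, or 10 of the 17 cholesterol genes, beside 23.8% of all genes.

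Ebp, the sterol isomerase late in the pathway, measured 168 and 241 normalized reads in 4T1 CM and 663, 359 and 489 in DMEM. Every 4T1 CM library lay below every DMEM library, and the log2 change was -1.28 ± 0.24 (SE; limma adjusted p = 0.00463). Nsdhl, a sterol dehydrogenase of the later steps, measured 101 and 119 against 339, 209 and 238, again without overlap (log2 change -1.22 ± 0.31, limma adjusted p = 0.0208). Fdps makes farnesyl diphosphate, from which squalene and the prenyl groups of proteins are made. It measured 367 and 755 against 1098, 865 and 1193 (log2 change -0.98 ± 0.29, limma adjusted p = 0.0373).

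The calls depended on single libraries. Without replicate 1 of mono-culture in 4T1 CM none of the 3 passed, with adjusted p of 0.0716 for Ebp, 0.142 for Nsdhl and 0.402 for Fdps. Nsdhl also missed the threshold without 4T1 CM replicate 2 (0.051) and without DMEM replicate 1 (0.0838), and Fdps without DMEM replicate 1 (0.101) or 3 (0.102). Fdps also missed it with edgeR on the reads recovered from the normalized values (0.0664), and its last 1000 bases overlap another gene, Gm43738, on the same strand. The count of members called was 6 without 4T1 CM replicate 2, 5 without DMEM replicate 2 and 1 without DMEM replicate 1. Replicate 1 was the lower of the 4T1 CM pair in 15 of the 17 cholesterol genes and in 3 of the 8 fatty acid genes. It lay below every DMEM library in 14 cholesterol genes and replicate 2 did so in 11. The shares of all genes for these single-library counts were not computed, so no excess is read from them. Replicate 1 held 2020605 reads and replicate 2 held 4846513, and the part of depth in their difference was not tested.

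**Figure D2:**
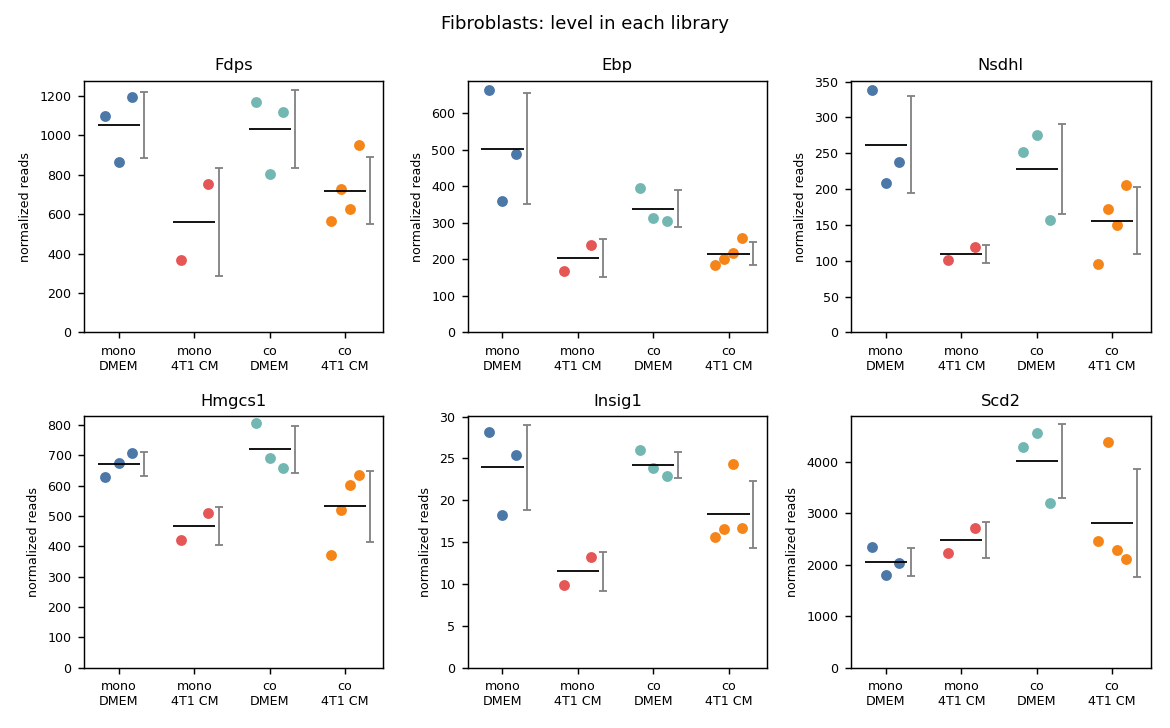
Normalized reads of Fdps, Ebp, Nsdhl, Hmgcs1, Insig1 and Scd2 in the fibroblast libraries, 1 point per library, with the mean as a line and the SD as a bar. For Ebp both mono-cultures in 4T1 CM (168 and 241) lie below the lowest DMEM mono-culture (359).

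Other cholesterol genes lay lower in 4T1 CM without passing. Mvd, the mevalonate diphosphate decarboxylase, measured 88.8 and 160 in 4T1 CM and 242, 191 and 192 in DMEM (log2 change -0.79, limma adjusted p = 0.0521). Msmo1, the methylsterol oxidase, measured 111 and 200 against 357, 223 and 310 (log2 change -0.97, limma adjusted p = 0.055). Hmgcs1, the synthase that opens the mevalonate route, measured 422 and 511 against 629, 674 and 709 (log2 change -0.53, limma adjusted p = 0.101). Sqle, squalene epoxidase, measured 203 and 247 against 357, 323 and 341 (log2 change -0.60, limma adjusted p = 0.068). In each of these genes the groups did not overlap.

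The same held for 3 more genes of the later steps. Cyp51, the lanosterol demethylase, measured 23.7 and 39.6 in 4T1 CM and 66.5, 48.7 and 61.6 in DMEM (log2 change -0.91, limma adjusted p = 0.0941). Tm7sf2 measured 39.5 and 49.5 against 116, 62.9 and 94.7 (log2 change -0.98, limma adjusted p = 0.0804). Dhcr7 measured 80.9 and 104 against 126, 114 and 145 (log2 change -0.47, limma adjusted p = 0.108).

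The remaining cholesterol genes overlapped between the media. Idi1, the isomerase of isopentenyl diphosphate, had the largest change of the mevalonate genes but was near the limit of detection, at 0 and 6.6 normalized reads against 6.14, 4.06 and 3.85 (log2 change -1.02, limma adjusted p = 0.451). Acat2, the thiolase that joins acetyl-CoA units, and the kinases Mvk and Pmvk had log2 changes of -0.35, -0.35 and -0.55. Hsd17b7 and Sc5d had -0.49 and -0.04. Lss was the 1 cholesterol gene above 0, at 0.23, with 27.6 and 12.4 against 24, 20.3 and 7.7.

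Among the regulators, Insig1 measured 9.87 and 13.2 in 4T1 CM and 28.1, 18.3 and 25.4 in DMEM, without overlap and just outside the threshold (log2 change -0.98, limma adjusted p = 0.0518). Srebf1 and Srebf2 differed by 0.06 each (limma adjusted p = 0.852 and 0.898). Stard4, which carries sterol between membranes, had a log2 change of -0.32 (adjusted p = 0.534). Of the fatty acid genes none passed the limma test, with a median log2 change of 0.11. Scd1, a stearoyl-CoA desaturase, measured 460 and 530 in 4T1 CM against 300, 185 and 316 (log2 change 0.92, limma adjusted p = 0.0559), without overlap. Fads2 measured 355 and 384 against 519, 459 and 520, also without overlap (log2 change -0.43, limma adjusted p = 0.192). Acly, Acaca (acetyl-CoA carboxylase), Elovl6 (an elongase), Scd2 and Fads1 had log2 changes between 0.00 and 0.29 and overlapped between the media. Fasn, fatty acid synthase, measured only 9.87 and 2.47 against 6.65, 6.09 and 10.

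Markers of other cells also differed between these groups. The summed level of 5 skeletal muscle markers was 11.3 to 16.3 CPM in the mono-cultures with 4T1 CM and 132 to 599 in DMEM, with Mybph and Myog at 0 in 4T1 CM. The 5 endothelial markers summed to 2.48 to 3.96 CPM against 13.1 to 16.4. Fabp4, the 1 adipocyte marker measured of 7, was at 43.7 to 53.9 against 12.2 to 32.4 CPM. In whole libraries of a sorted population, fewer cells of a type and less RNA per cell cannot be told apart, and the part of either in the result was not tested.

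In fibroblasts grown with macrophages, no member passed the limma test between 4T1 CM and DMEM, where 5.85% of all genes did. edgeR and DESeq2 on the reads recovered from the normalized values also called 0. At an unadjusted p under 0.05, 8 members were lower and 0 higher (10.9% and 8.22% of all genes), and 25 of the 29 had a log2 change below 0, against 50.9% of all genes. The cholesterol genes had a median log2 change of -0.23. The smallest adjusted p was that of Fads2, the fatty acid desaturase, at 0.0559. It measured 348, 570, 365 and 309 in 4T1 CM and 559, 570 and 649 in DMEM, and without 4T1 CM replicate 2 it and Scd2 passed (adjusted p = 0.00387 and 0.015). Ebp measured 185, 201, 217 and 260 against 397, 315 and 305, without overlap (log2 change -0.65, limma adjusted p = 0.0821). Ebp, Hmgcs1, Mvd and Dhcr7 were the 4 members lower in 4T1 CM without overlap, beside 9.13% of all genes. Hmgcs1 measured 371, 521, 601 and 636 against 807, 693 and 660 (log2 change -0.46, limma adjusted p = 0.14). Mvd measured 125, 125, 104 and 148 against 168, 156 and 230 (log2 change -0.54, limma adjusted p = 0.163). Dhcr7 measured 85.6, 113, 95.6 and 96.6 against 129, 118 and 130 (log2 change -0.37, limma adjusted p = 0.209).

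Tm7sf2 had the most negative log2 change in co-culture, -0.69, at 32.4, 63.1, 39.1 and 41.7 against 93.1, 80 and 44.6, but the groups overlapped (limma adjusted p = 0.219). Nsdhl and Fdps, lower in mono-culture, overlapped here, at 95, 173, 150 and 206 against 252, 275 and 157 and at 566, 729, 626 and 953 against 1170, 803 and 1117. Insig1 measured 15.7, 16.6, 24.3 and 16.7 against 26, 23.9 and 22.9 (log2 change -0.41, limma adjusted p = 0.445). The 5 skeletal muscle markers summed to 33.7 to 106 CPM in 4T1 CM and 147 to 288.1 in DMEM. The 5 endothelial markers summed to 2.03 to 7.01 CPM against 26.8 to 91.9. Neither pair of ranges overlapped, and the part of such cells in the result was not tested.

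Whether the medium acts differently in co-culture was tested as an interaction, and no member passed the limma test (0.145% of all genes did). At an unadjusted p under 0.05, 1 member, Scd2, was lower (log2 difference -0.83, limma adjusted p = 0.357), beside 6.78% of all genes, and edgeR and DESeq2 called 0. The effects in mono- and co-culture are therefore not shown to differ for any member.

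Co-culture itself was compared with mono-culture in each medium; the comparisons share libraries with those above. In DMEM no member passed the limma test, where 1% of all genes did. At an unadjusted p under 0.05, 4 members were higher (Scd2, Srebf1, Elovl6 and Fads1) and 1 was lower (Ebp), beside 6.46% and 4.44% of all genes. In 5 members co-culture was higher without overlap (Srebf1, Elovl6, Scd1, Scd2 and Fads2), beside 10.4% of all genes. Scd2, a desaturase that makes monounsaturated fatty acids, measured 4302, 4557 and 3213 in co-culture and 2348, 1809 and 2034 in mono-culture. The groups did not overlap (log2 change 0.95 ± 0.24, limma adjusted p = 0.0879), and the gene passed when only the compared groups were fitted (0.0174) and with DESeq2 on recovered reads (0.0158), but not with edgeR. Srebf1 measured 887, 967 and 836 against 656, 629 and 667 (log2 change 0.46, limma adjusted p = 0.229). Its last 1000 bases overlap Rai1 on the opposite strand, and the counting's use of strand is not given. Elovl6 measured 93.1, 88.3 and 82 against 58.8, 56.9 and 50.8 (log2 change 0.65, limma adjusted p = 0.27). In 4T1 CM no member passed the limma test, where 0.0242% of all genes did; 2 were higher at an unadjusted p under 0.05 (5.08% of all genes were), 0 were lower, and edgeR and DESeq2 called 0. Without mono-culture 4T1 CM replicate 2, Pmvk passed (adjusted p = 0.0444).

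**Figure D3:**
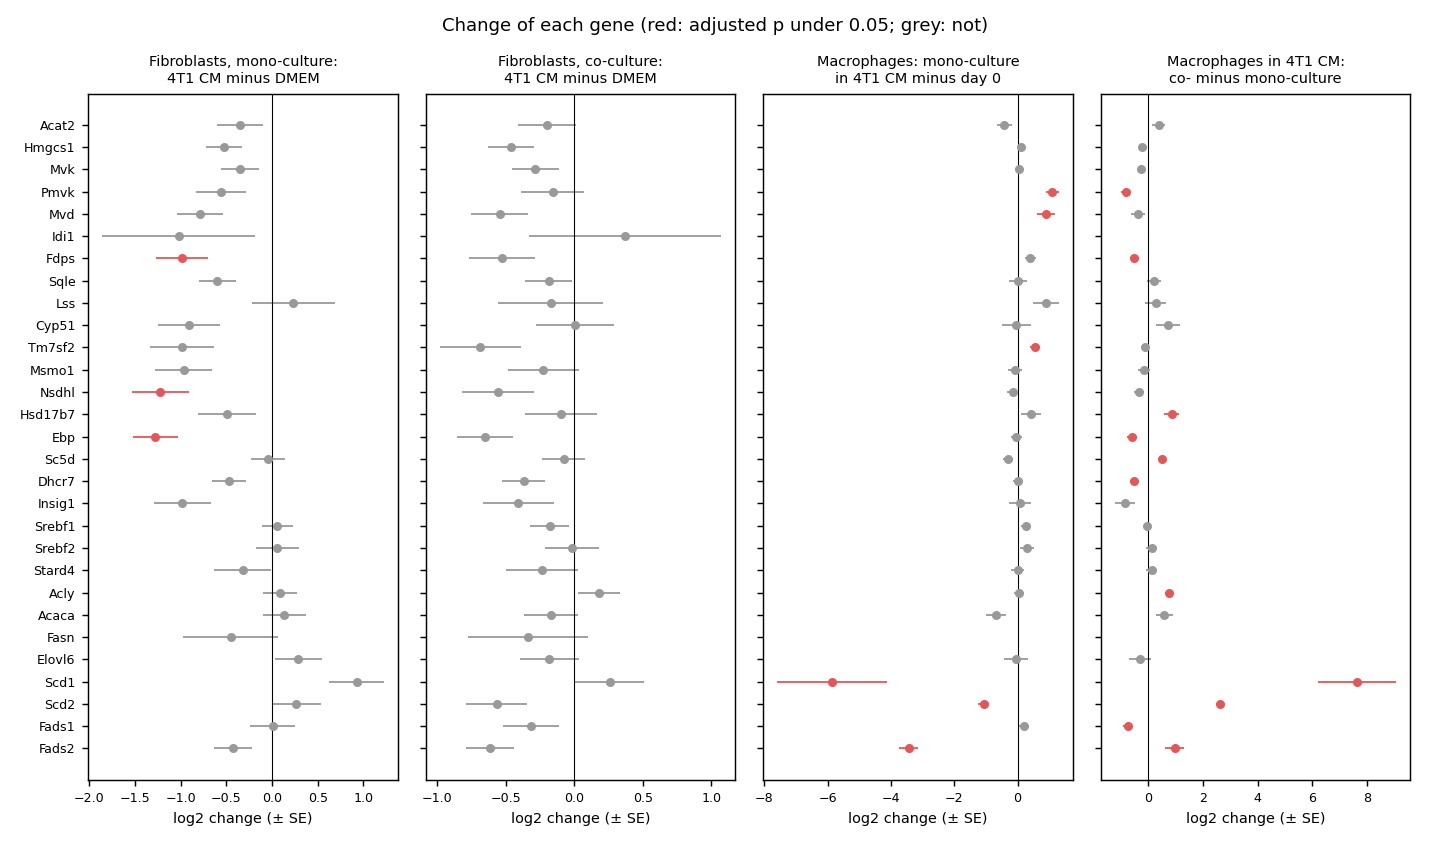
Log2 change with SE of each member in 4 comparisons, 1 panel each: fibroblasts alone and in co-culture (4T1 CM against DMEM), macrophages alone in 4T1 CM against day 0, and macrophages in co-culture against alone in 4T1 CM. Red points passed at an adjusted p under 0.05, and each panel has its own scale. In fibroblast mono-culture the 3 red points are Ebp, Nsdhl and Fdps. The Scd1 points of the macrophage panels are model estimates and not measured ratios, because macrophages alone in 4T1 CM held 0 Scd1 reads.

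In 4T1 CM, co-cultured macrophages had more Scd2, Scd1, Fads2, Acly, Hsd17b7 and Sc5d RNA than macrophages grown alone, and less Fads1, Pmvk, Fdps, Ebp and Dhcr7. By edgeR, 6 rose and 5 fell of 27 members, or 40.7%, beside 26% of all genes, 14% higher and 11.9% lower. Of the 7 fatty acid genes tested 4 rose and 1 fell; of the 16 cholesterol genes 2 rose and 4 fell. The comparison shares its co-cultures with the comparison of media below, and its mono-cultures with that against day 0.

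Scd2 measured 332, 361, 505 and 441 in co-culture and 74.9, 50.6, 69.9 and 63.5 alone. The groups lay far apart, and the log2 change was 2.64 ± 0.16 (SE; edgeR adjusted p = 1.76e-07). Scd1 measured 3.75, 12.9, 68.5 and 11.6 in co-culture and was at 0 in all 4 mono-cultures, at least 31.7-fold higher with a floor of 3 reads over the mono-culture group (edgeR adjusted p = 0.00157). Without co-culture replicate 3 the bound was 12.3-fold, and for the lowest co-culture library it was 4.92-fold. These bounds are for all RNA in the libraries, that of fibroblasts included. Fads2 measured 15, 29.2, 31.9 and 22.2 against 19.6, 11.8, 11.2 and 6.22, and the groups overlapped (log2 change 0.97 ± 0.34, edgeR adjusted p = 0.0424). It missed the threshold without any of 6 libraries: co-culture replicates 2, 3 and 4 (0.121, 0.0992 and 0.0591) and mono-culture replicates 2, 3 and 4 (0.0828, 0.0918 and 0.105). It also missed it when only the compared groups were fitted (0.0687), a fit in which Scd1 fell under the count filter.

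In 4T1 CM the co-cultured fibroblasts averaged 702 CPM of Scd2, 120 of Scd1 and 99.5 of Fads2, and the co-cultured macrophages 151, 8.95 and 9.06. The share of fibroblast RNA times the fibroblast level came to 19.8, 20.3, 72.8 and 28% of the measured Scd2 in the 4 co-culture libraries. For Scd1 it came to 300, 97.1, 91.8 and 183%, and for Fads2 to 62.2, 35.5, 163 and 78.8%. For Hsd17b7 it was 10.6, 8.84, 63.9 and 11.5%, for Sc5d 6.55, 6.74, 32.6 and 11%, and for Acly 3.51, 2.79, 17.8 and 5.82%. The summed level of the 15 fibroblast markers ran from 1234 to 9441 CPM in these co-cultures and from 8.91 to 76.8 CPM in the mono-cultures, where Lum was at 0. Cdh1, the 1 epithelial marker measured of 5, was at 17.0 to 36.2 CPM in the co-cultures and at most 0.860 in the mono-cultures. Fabp4, the 1 adipocyte marker measured of 7, was at 2.79 to 26.7 against 77.4 to 96.7, and at 63.0 to 100 CPM at day 0. A single gene of a list does not show which cells its RNA came from. The part of RNA from other cells in the differences was not tested.

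**Figure D4:**
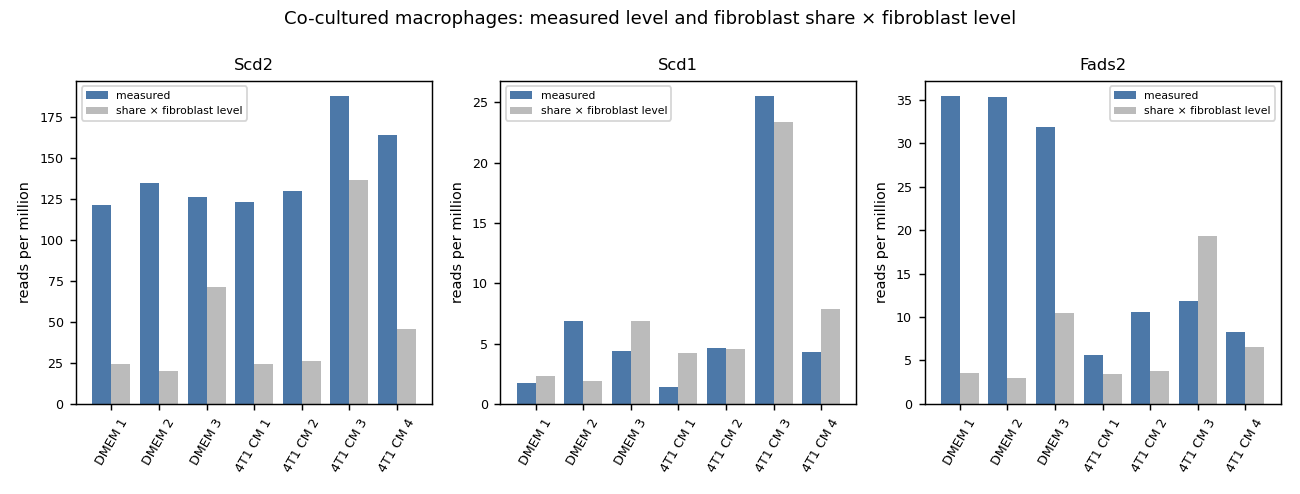
CPM of Scd2, Scd1 and Fads2 in each co-cultured macrophage library, with beside each the level that its fibroblast share would give at the fibroblast level. In co-culture with 4T1 CM the product is 19.8 to 72.8% of Scd2 and 91.8 to 300% of Scd1.

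Acly, which makes cytosolic acetyl-CoA from citrate, measured 373, 521, 411 and 422 in co-culture and 214, 242, 315 and 243 alone, without overlap (log2 change 0.76 ± 0.15, edgeR adjusted p = 0.00136). Fads1, the desaturase that acts after Fads2 on polyunsaturated fatty acids, moved the other way, at 264, 331, 307 and 272 against 441, 381, 574 and 556 (log2 change -0.74 ± 0.15, edgeR adjusted p = 0.0019). Both passed in all 8 fits that left out 1 library.

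Among the cholesterol genes Pmvk, phosphomevalonate kinase, measured 172, 144, 190 and 152 in co-culture and 414, 235, 281 and 207 alone (log2 change -0.82 ± 0.18, edgeR adjusted p = 0.00357). Dhcr7, the reductase of the last step, measured 46.9, 46.4, 54.2 and 48 against 72.2, 72.9, 69 and 62.2 (log2 change -0.52 ± 0.14, edgeR adjusted p = 0.0101). In both genes the groups did not overlap. Ebp was lower by a log2 change of -0.58 (edgeR adjusted p = 0.0147; 0.0623 without mono-culture replicate 1). Fdps was lower by -0.50 (adjusted p = 0.0304) and missed the threshold without co-culture replicate 1 (0.0746) or 4 (0.0716) or mono-culture replicate 1 (0.135). Sc5d, the sterol desaturase, was higher by 0.52 (edgeR adjusted p = 0.0168; 0.0521 with DESeq2). Hsd17b7, the ketoreductase, was higher by 0.87 (edgeR adjusted p = 0.0267) and missed it without co-culture replicate 2 (0.0611) or 4 (0.122) or mono-culture replicate 1 (0.0745) or 4 (0.0589), and with DESeq2 (0.0531). None of the 4 regulators passed; Srebf1 measured 289, 282, 350 and 279 in co-culture and 304, 263, 394 and 255 alone, and Srebf2 131, 136, 142 and 123 against 139, 85.8, 148 and 101. Insig1 had the largest change among them, at 3.75, 9.45, 6.37 and 8 against 13.4, 9.41, 14.7 and 14.9 (log2 change -0.85, edgeR adjusted p = 0.0941).

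**Figure D5:**
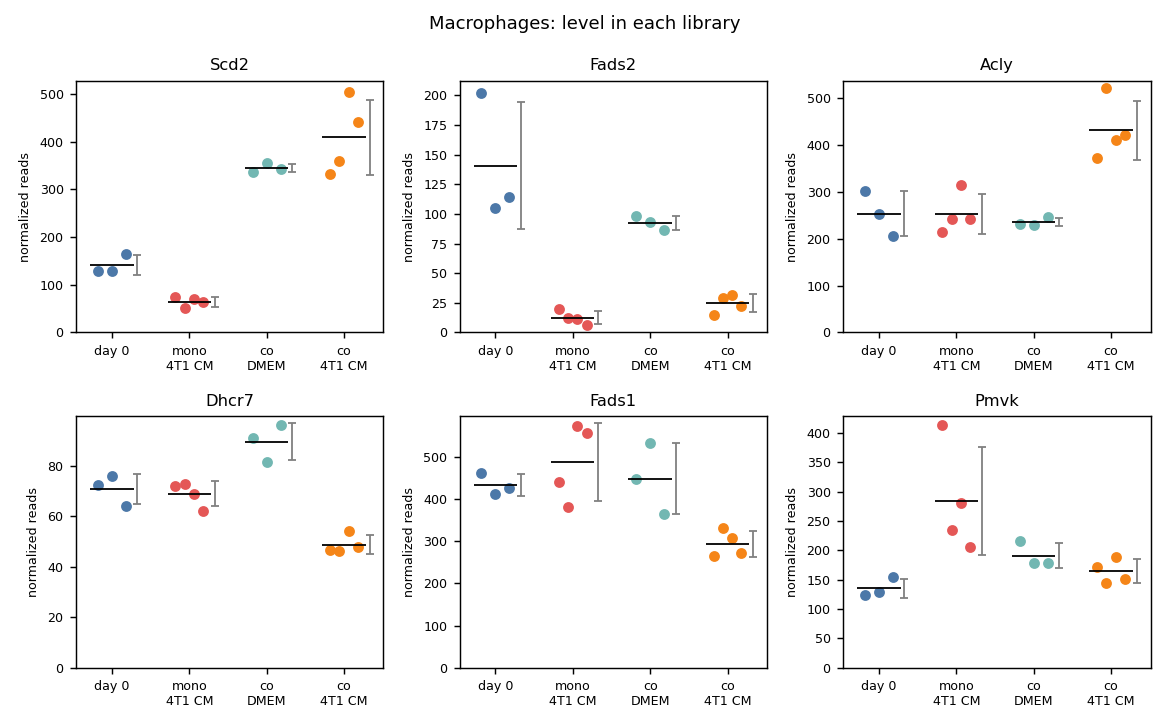
Normalized reads of Scd2, Fads2, Acly, Dhcr7, Fads1 and Pmvk in the macrophage libraries, 1 point per library, with the mean as a line and the SD as a bar. Scd2 lies between 332 and 505 in the co-cultures with 4T1 CM and between 50.6 and 74.9 in the mono-cultures with 4T1 CM.

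Between the media, co-cultured macrophages had less Dhcr7, Fads2 and Fads1 in 4T1 CM and more Acly: 1 member rose and 3 fell of 27 by edgeR, or 14.8%, beside 10.3% of all genes, 5.68% higher and 4.63% lower. Dhcr7 measured 46.9, 46.4, 54.2 and 48 in 4T1 CM and 91.1, 81.7 and 96.2 in DMEM without overlap (log2 change -0.88 ± 0.14, edgeR adjusted p = 0.000729). Fads2 measured 15, 29.2, 31.9 and 22.2 against 98.2, 93.4 and 86.4, without overlap (log2 change -1.88 ± 0.29, edgeR adjusted p = 0.000441). Acly measured 373, 521, 411 and 422 against 231, 230 and 246, again without overlap (log2 change 0.88 ± 0.16, edgeR adjusted p = 0.00201). The fibroblast product was 10.1, 8.27 and 32.9% of the measured Fads2 in DMEM. Fads1 was lower by -0.60 ± 0.16 (edgeR adjusted p = 0.0257) and missed the threshold without 4T1 CM replicate 1 (0.0699) or 4 (0.0723) or DMEM replicate 1 (0.086) or 2 (0.159). Insig1 lay at 3.75, 9.45, 6.37 and 8 against 21.3, 17 and 11.1, without overlap and without passing (log2 change -1.12, edgeR adjusted p = 0.068; 0.041 with limma on normalized values). Fdps measured 257, 299, 292 and 270 against 418, 461 and 353, also without overlap (log2 change -0.55, edgeR adjusted p = 0.0562), and passed with DESeq2 (0.0398) and with limma (0.048). Scd2 measured 332, 361, 505 and 441 against 337, 355 and 342 (log2 change 0.25, edgeR adjusted p = 0.373).

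Against day 0, macrophages in 4T1 CM without fibroblasts had lower Fads2, Scd2 and Scd1 and higher Pmvk, Mvd and Tm7sf2: 3 rose and 3 fell of 27 by edgeR, or 22.2%, beside 21.9% of all genes, 11.1% higher and 10.9% lower. Fads2 measured 19.6, 11.8, 11.2 and 6.22 in 4T1 CM and 202, 105 and 114 at day 0 (log2 change -3.44 ± 0.30, edgeR adjusted p = 4.55e-07). Scd2 measured 74.9, 50.6, 69.9 and 63.5 against 128, 128 and 165 (log2 change -1.08 ± 0.17, edgeR adjusted p = 0.000187). Scd1 was at 0 in all 4 libraries and 3.77, 6.97 and 9.65 at day 0, at least 8.92-fold lower with the same floor (edgeR adjusted p = 0.0268). It missed the threshold without day 0 replicate 3 (0.073) or mono-culture replicate 1 (0.0553) or 3 (0.0519). The partner share was at most 0.192% in both groups.

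Pmvk measured 414, 235, 281 and 207 in 4T1 CM and 125, 128 and 154 at day 0, without overlap (log2 change 1.10 ± 0.20, edgeR adjusted p = 0.000656). Mvd rose by a log2 change of 0.90 (edgeR adjusted p = 0.0347) and missed the threshold without day 0 replicate 1 (0.16) or 2 (0.0668) or mono-culture replicate 1 (0.161) or 4 (0.0598); its end overlaps Gm20388 on the opposite strand. Tm7sf2, a sterol reductase, rose by 0.56 (edgeR adjusted p = 0.0222) and missed it without day 0 replicate 1 (0.0734) or 3 (0.0696) or mono-culture replicate 1 (0.104) or 3 (0.0597), and with only the compared groups (0.057). Srebf1 measured 304, 263, 394 and 255 against 268, 262 and 253, and Dhcr7 72.2, 72.9, 69 and 62.2 against 72.5, 75.9 and 64.1, a log2 change of 0.00.

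In co-culture with DMEM, macrophages had more Scd2 and Lss than at day 0: 2 rose and 0 fell of 27 by edgeR, or 7.41%, beside 15.2% of all genes, 8.47% higher and 6.71% lower. At an unadjusted p under 0.05, 8 were higher and 1 lower, beside 13.8% and 12.3%. Scd2 measured 337, 355 and 342 against 128, 128 and 165, without overlap (log2 change 1.31 ± 0.17, edgeR adjusted p = 8.35e-05), and the fibroblast product was 20.0, 14.8 and 56.5% of the measured level. Lss, lanosterol synthase, measured 20.1, 24.4 and 14.4 against 5.28, 7.74 and 10.3 (log2 change 1.31 ± 0.42, edgeR adjusted p = 0.0466). It missed the threshold without co-culture replicate 1 (0.099) or 2 (0.166) or day 0 replicate 1 (0.163), 2 (0.106) or 3 (0.0549), and with DESeq2 (0.0609) or limma (0.0506). It overlaps 4930483K19Rik on the opposite strand. Fads2, which was lower in 4T1 CM, measured 98.2, 93.4 and 86.4 against 202, 105 and 114 here (log2 change -0.59, edgeR adjusted p = 0.172), without overlap.

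Levels can be set side by side between the cell types only as a description, because the tables were normalized apart and no test was made. In CPM, Scd2 averaged 525 in fibroblasts alone in DMEM and 53.4 in day 0 macrophages. Scd1 averaged 67.9 and 2.58, Fads2 127 and 53.5, Fads1 317 and 165, Srebf1 166 and 99, and Fdps 268 and 116. These 6 were chosen after their values were seen. Over the 29 members the fibroblast value was the higher in 24 and the macrophage value in 5, which were Ebp (128 and 140), Msmo1 (75.6 and 77.2), Pmvk (42.2 and 51.6), Stard4 (16.4 and 24.3) and Tm7sf2 (23.2 and 28.2).

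Beyond the 30 genes, 2 lists of related genes were followed: other genes of the SREBP pathway (28, of which 27 were tested in fibroblasts and 24 in macrophages) and genes of sterol efflux, storage and LXR (14, of which 13 and 14 were tested). In fibroblasts alone, 1 gene of the SREBP list was higher and 1 lower in 4T1 CM by limma, and 2 were higher and 1 lower of the efflux list, beside 13.3% of all genes. At an unadjusted p under 0.05 by limma, 1 of the SREBP list was higher and 7 lower. The share of all genes at that level is not given here, so no excess is read from these counts. In 8 of the 27 the groups did not overlap and 4T1 CM was lower, beside 23.8% of all genes. In 2 it was higher without overlap, again with no share of all genes given. Ch25h, which makes an oxysterol from cholesterol, rose (log2 change 2.99 ± 0.37, limma adjusted p = 0.000318), as did the efflux transporter Abcg1 (2.17 ± 0.53, adjusted p = 0.016) and Lbr, a sterol reductase of the nuclear envelope (1.18 ± 0.28, adjusted p = 0.0139). Nr1h3, which encodes an LXR, fell by a log2 change of -2.79 (adjusted p = 0.0029). Ch25h also rose in co-culture (log2 change 2.25 ± 0.31, limma adjusted p = 0.000957). In co-culture 0 of the SREBP list passed, and 1 of the efflux list rose and 1 fell, beside 5.85% of all genes. At an unadjusted p under 0.05 by limma, 2 of the SREBP list were higher and 1 lower, beside 8.22% and 10.9% of all genes.

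In co-cultured macrophages against macrophages alone in 4T1 CM, the SREBP list had 1 gene higher and 3 lower (16.7%) and the efflux list 3 higher and 4 lower (50%) by edgeR, beside 26% of all genes. Ch25h rose (log2 change 4.14 ± 0.34, edgeR adjusted p = 8.16e-07), as did the fatty acid receptor Cd36 (2.90 ± 0.44, adjusted p = 0.000169) and the lipid droplet coat gene Plin2 (1.32 ± 0.14, adjusted p = 7.83e-06). Cyp27a1, a sterol hydroxylase, fell by a log2 change of -2.42 (adjusted p = 0.000108) and Nr1h3 by -1.14 (adjusted p = 0.00197). Between the media in co-culture the SREBP list had 1 gene higher and 0 lower (4.17%) and the efflux list 2 and 2 (28.6%), beside 10.3% of all genes; Cyp27a1 was lower in 4T1 CM (log2 change -1.98, edgeR adjusted p = 0.0021). Against day 0, macrophages alone in 4T1 CM had 1 gene of the SREBP list higher and 3 lower (16.7%), and 3 and 4 of the efflux list (50%), beside 21.9% of all genes. Cd36 fell by a log2 change of -5.09 (edgeR adjusted p = 1.87e-07), Abcg1 by -2.29 (1.93e-06) and Plin2 by -1.43 (2.44e-06), and Abca1 rose by 1.65 (0.00237). In co-culture with DMEM against day 0 the SREBP list had 0 genes higher and 1 lower (4.17%) and the efflux list 3 higher and 5 lower (57.1%), beside 15.2% of all genes. Cd36 fell by a log2 change of -3.98 (6.92e-06) and Abcg1 by -2.07 (3.88e-05), while Ch25h rose by 3.54 (1.3e-05). The fibroblast share of the co-cultured macrophages was estimated at 3.48 to 19.5% in 4T1 CM and 1.95 to 7.00% in DMEM. The fibroblast product was not computed for the genes of these lists, and the part of fibroblast RNA in their changes was not tested.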

How the data were processed

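Mouse fibroblast (12) and macrophage (14) libraries were profiled by 3′ end RNA-seq. Reads were demultiplexed with bcl2fastq, aligned with STAR 2.4.2a to mm10 and counted with HTSeq, per the submitters' processing notes. Strand use in counting is not given in the sources used. For macrophages the authors deposited raw counts and, for both cell types, normalized signal, gene counts divided by a size factor per library. For fibroblasts 100% of the normalized values came out as whole reads within 0.001, and recovered macrophage reads equal the deposited counts in 100%. The 30 genes and all lists were chosen with earlier results of these data known.

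Fibroblasts were tested with limma 3.58.1 on log2(normalized value + 1), with trend, on 12401 genes at 5 or more in at least 2 libraries. Fold changes of low genes are understated on that scale. Macrophage counts were tested with edgeR 4.0.16 (quasi-likelihood, TMM, filterByExpr) on 10088 genes. p-values were adjusted by Benjamini-Hochberg over all genes tested, and 0.05 was the threshold. Alternatives included edgeR on recovered fibroblast reads, which called 1396 genes in mono-culture 4T1 CM against DMEM, and DESeq2 1.42.0, in R 4.3.3. The fits on recovered reads and limma on the normalized macrophage values were chosen after seeing the data; other pseudocounts, filters, normalizations, a replicate block and leaving out each library were planned. SE in edgeR is the log2 change over the root of the F value. Fits were also run on simulated data, and the outcome is not reported here. The simulation gave every gene the same spread and changed only genes with more reads. It therefore does not bear on low genes or on libraries that disagree. All 30 genes could be named, with values in every library for those that passed and the largest change in each role.

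Same-number libraries of macrophage co-culture in 4T1 CM and in DMEM deviated together in all 3 pairs (r from 0.16 to 0.43). Replicate numbers may therefore pair these groups, from the data and not the labels, and no other groups compared met this. The edgeR p-values given between these media come from the fit without pairing, and the replicate block changed no call there. Promoters come from RefSeq on GRCm38.p6. The last 1000 bases of Mvd, Lss, Cyp51 and Srebf1 overlap another gene on the opposite strand and those of Fdps on the same strand, so their reads may be shared. Floors cover counting error only. Of the marker lists, 1 is not reported here.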

Additional observations from a re-analysis of the deposited data

Results flagged for a closer look

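Over 87 gene and group sets of 4 libraries, 7 held a library far from the other 3; chance gives about 1 in 20. In fibroblast co-culture with 4T1 CM, Sqle was low in replicate 1 (213 normalized reads, the others 333.2 to 350.2), Insig1 was high in replicate 3 (24.33) and Scd2 was high in replicate 2 (4384, the others 2113 to 2462). In macrophage co-culture with 4T1 CM, Idi1 was high in replicate 4 (3.558), Srebf1 was high in replicate 3 (350.5) and Scd1 was high in replicate 3 (68.5, the others 3.748 to 12.88); replicate 3 is the library with the highest fibroblast share, 19.5%. In macrophages alone with 4T1 CM, Fdps was high in replicate 1 (528.9, the others 337.2 to 363.2).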

How the results depend on the processing

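Apart from fits that left out a library, single-gene results came out on the same side of the threshold in 399 cases, lost it in 11 and gained it in 16, and none reversed. The cause was not tested. In fibroblast mono-culture (4T1 CM against DMEM) 3 members passed: 5 with quantile normalization, 8 with only the compared groups, 5 with DESeq2 on recovered reads. In fibroblast co-culture between media 1 passed with quantile normalization, and in co-culture against mono-culture in DMEM 1 passed with only the compared groups and 1 with DESeq2 on recovered reads. In macrophage co-culture with DMEM against day 0, 1 passed with DESeq2, with limma on normalized values and with the replicate block. Leaving out 1 library at a time gave 0 to 6 members in fibroblast mono-culture between media, 0 to 2 in co-culture between media, 0 to 0 for co-culture in DMEM, 0 to 1 for co-culture in 4T1 CM and 0 to 0 for the interaction. In macrophages it gave 8 to 10 between co-culture and growth alone with 4T1 CM, 3 to 6 between media, 1 to 2 for co-culture in DMEM and 3 to 6 for mono-culture in 4T1 CM against day 0. With the replicate block, 2 members passed in fibroblast mono-culture and 10, 4, 1 and 5 in the macrophage comparisons of co-culture with mono-culture, between media, co-culture with day 0 and mono-culture with day 0. Between the media, co-cultured macrophages of the same number correlated above 0.1 in all 3 pairs, and the block changed no call. Replicate 4 in 4T1 CM and replicate 1 in DMEM, of unlike number, correlated at 0.19, above the lowest same-number value of 0.16. The highest value, 0.43, joined the libraries with the largest fibroblast share in each group (19.5 and 7.00%). These correlations therefore do not establish pairing. In the other comparisons the same-number libraries did not all correlate above 0.1. Over all same-number pairs, 2 of 15 in fibroblasts and 7 of 19 in macrophages correlated above 0.1; their correlations ran from -0.24 to 0.19 (median -0.03) and from -0.26 to 0.43 (median -0.04), beside medians of 0.01 and 0.02 for pairs of unlike number, and the block changed no call other than those of Fdps in fibroblasts and of Hsd17b7, Lss and Mvd in macrophages. Only 2 libraries make up fibroblast mono-culture in 4T1 CM, which limits what can be called there.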
